A study of Mus musculus with 48 samples.

Results

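The 8 genes described here encode neutrophil granule proteins and alarmins: S100a8, S100a9, Ngp, Ltf, Lcn2, Mmp8, Lyz2 and Ms4a3. They were chosen by symbol from a count table of 55487 genes, 1 row for each symbol, because their counts in the clones with a mutated Rps15 gene had stood far above wild type in an earlier reading of the same table. Their difference between Rps15 mutants and wild type is therefore given as a description, without a test. All samples were clones of Ba/F3, a line of mouse B-cell precursors that needs the cytokine interleukin-3 to grow, made by CRISPR-Cas9 editing. The study compared 8 genotypes of ribosomal protein genes that are altered in cancer, with 3 clones of each. Besides wild type (WT) these were the heterozygous losses Rpl5+/-, Rpl11+/- and Rpl22+/-, the homozygous loss Rpl22-/-, and the point mutants Rps15 P131S, Rps15 H137Y and Rpl10 R98S, which are labelled with the mutation on both alleles. Rpl5, Rpl11, Rpl22 and Rpl10 encode proteins of the large ribosomal subunit, and Rps15 a protein of the small one. All 24 clones were cultured in 10% serum with 1 ng/ml interleukin-3 and exposed to cycloheximide for 1 minute before harvest. Each lysate was divided between poly(A) RNA sequencing and ribosome profiling, in which the mRNA fragments that ribosomes shield from nuclease are sequenced as footprints.

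Neutrophils store antimicrobial proteins in granules that form in a fixed order while the cell matures, from azurophil through specific to gelatinase granules. S100a8 and S100a9 encode calcium-binding proteins that pair as calprotectin, fill the neutrophil cytosol and act outside the cell as alarmins on receptors such as Tlr4. Ltf encodes lactoferrin, which binds iron, Lcn2 encodes lipocalin-2, which traps the siderophores that bacteria use to take up iron, and Mmp8 encodes neutrophil collagenase. Ngp encodes neutrophilic granule protein, a cathelicidin relative; Lyz2 encodes lysozyme of granulocytes and macrophages; Ms4a3 encodes a membrane-spanning protein of granulocyte and monocyte progenitors. In the bone marrow, factors of the C/EBP family, C/EBP epsilon above all, switch on the specific granule genes late in granulocyte development.

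The 8 genes moved together across clones, also where they lie on different chromosomes. The promoters of the alarmin pair and of 2 specific granule genes are shown as examples, from RefSeq (mouse build GRCm38.p6), read 5' to 3' on the gene's strand from 250 bases before to 50 after the annotated start. S100a8 (ENSMUSG00000056054, chr3:90669071-90670034, plus strand) and S100a9 (ENSMUSG00000056071, chr3:90692630-90695721, minus strand) lie 22.6 kb apart. Ngp (ENSMUSG00000032484, chr9:110419808-110423012) and Ltf (ENSMUSG00000032496, chr9:111019292-111042766), both on the plus strand, lie 596 kb apart. Each window holds 300 bases and covers the promoter and the first transcribed bases. Capitals mark matches on either strand to TTGCNNAA, a core bound by C/EBP factors, and to TATAAA, the letters of a TATA box.
S100a8, chr3:90668821-90669120, plus strand: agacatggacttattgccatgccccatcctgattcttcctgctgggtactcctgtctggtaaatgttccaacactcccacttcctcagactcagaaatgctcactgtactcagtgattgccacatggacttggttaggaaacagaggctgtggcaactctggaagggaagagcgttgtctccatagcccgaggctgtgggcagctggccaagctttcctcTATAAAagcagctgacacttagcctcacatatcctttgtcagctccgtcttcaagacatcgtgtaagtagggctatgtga
S100a9, chr3:90695672-90695971, minus strand: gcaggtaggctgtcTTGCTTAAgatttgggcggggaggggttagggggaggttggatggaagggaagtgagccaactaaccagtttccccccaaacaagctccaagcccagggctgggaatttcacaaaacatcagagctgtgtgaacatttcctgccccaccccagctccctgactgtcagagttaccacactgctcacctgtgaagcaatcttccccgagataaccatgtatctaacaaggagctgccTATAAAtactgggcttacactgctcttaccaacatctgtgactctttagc
Ngp, chr9:110419558-110419857, plus strand: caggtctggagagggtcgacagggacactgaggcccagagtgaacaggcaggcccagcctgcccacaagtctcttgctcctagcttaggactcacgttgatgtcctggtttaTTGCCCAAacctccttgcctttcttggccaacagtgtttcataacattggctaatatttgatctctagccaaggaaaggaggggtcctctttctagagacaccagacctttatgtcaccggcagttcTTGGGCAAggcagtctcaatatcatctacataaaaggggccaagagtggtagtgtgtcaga
Ltf, chr9:111019042-111019341, plus strand: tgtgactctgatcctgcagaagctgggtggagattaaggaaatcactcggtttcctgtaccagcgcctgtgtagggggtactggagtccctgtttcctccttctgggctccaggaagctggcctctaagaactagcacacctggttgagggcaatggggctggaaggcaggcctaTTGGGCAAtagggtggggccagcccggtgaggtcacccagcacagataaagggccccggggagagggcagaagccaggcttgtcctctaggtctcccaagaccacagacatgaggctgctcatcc
TTGCNNAA was found in 6 of the 8 promoters (S100a9, Ngp, Ltf, Lcn2, Mmp8 and Ms4a3) and in 10.8% of 32851 mouse promoters of the same length. TATAAA was found in 3 and in 13.6% of all, at base -30 from the start in S100a8, at base 1 in S100a9 and, on the opposite strand, at base -3 in Mmp8. Another 6 motifs were searched. TTNNGNAAT, a wider C/EBP core, was in 4 of 8 (11.5% of all), GAGGAA, an ETS and PU.1 core, in 5 (28.3%), TGTGGT, a RUNX core, in 3 (16.8%) and AATC, a GFI1 core, in 5 (73.1%). The wider C/EBP core overlapped a TTGCNNAA match in Ngp, Ltf and Ms4a3. In S100a9 it lay apart from that match, at base -131 against -236. The C/EBP palindrome TTGCGCAA (0.183% of all) and an NF-kB motif (1.63%) were in none. A match describes these letters only and is no evidence that a factor binds there.

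Levels are given in CPM, the count as a share of the library on the usual per-megaread scale, with library sizes scaled by the trimmed mean of M-values, so they can be compared between clones for a gene and not between genes of different length. The 24 RNA libraries held 13029073 to 38258559 counts and the 24 footprint libraries 15598994 to 72044439. Rpl5, Rpl11 and Rpl22 RNA was lower in the clones labelled heterozygous for each than in WT, at 1534 to 1588 against 2283 to 2338 CPM for Rpl5, 1008 to 1150 against 1665 to 1686 for Rpl11 and 664 to 712 against 933 to 967 for Rpl22. The library labelled Rpl22-/- clone 30 went against its label, with 1544 CPM of Rpl22 footprints against 274 and 317 in clones 649 and 776 and 1429 to 1596 in Rpl22+/-. Gene counts cannot check the point mutations of Rpl10 and Rps15. Clones are labelled as separate clones and nothing more is said of separate cultures, so each test below measures the spread between clones. In a bulk culture, a few cells with much of an mRNA and many cells with little of it cannot be told apart.

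S100a8 and S100a9 RNA stood at the top of the panel in all 6 Rps15 mutant clones. S100a8 measured 12.2, 37.8 and 3.05 CPM in WT clones 1, 2 and 3, 196, 440 and 982 CPM in Rps15 P131S clones 20, 24 and 63, and 174, 880 and 281 CPM in Rps15 H137Y clones 2, 6 and 16. S100a9 measured 18.01, 60.8 and 6.41 CPM in the same WT clones, 257, 637 and 1374 CPM in P131S, and 255, 1456 and 419 CPM in H137Y. The lowest Rps15 clone held 1.43 times the S100a8 RNA and 1.33 times the S100a9 RNA of Rpl5+/- clone 76, the highest of the 18 other clones. In the 18 clones with intact Rps15 these RNAs were present at a lower level, from 2.08 to 121 CPM (median 16.0) for S100a8 and from 2.54 to 192 CPM (median 27.0) for S100a9. Both genes therefore had RNA in the unmutated line, where the WT clones alone ran over a wide range.

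**Figure D1:**
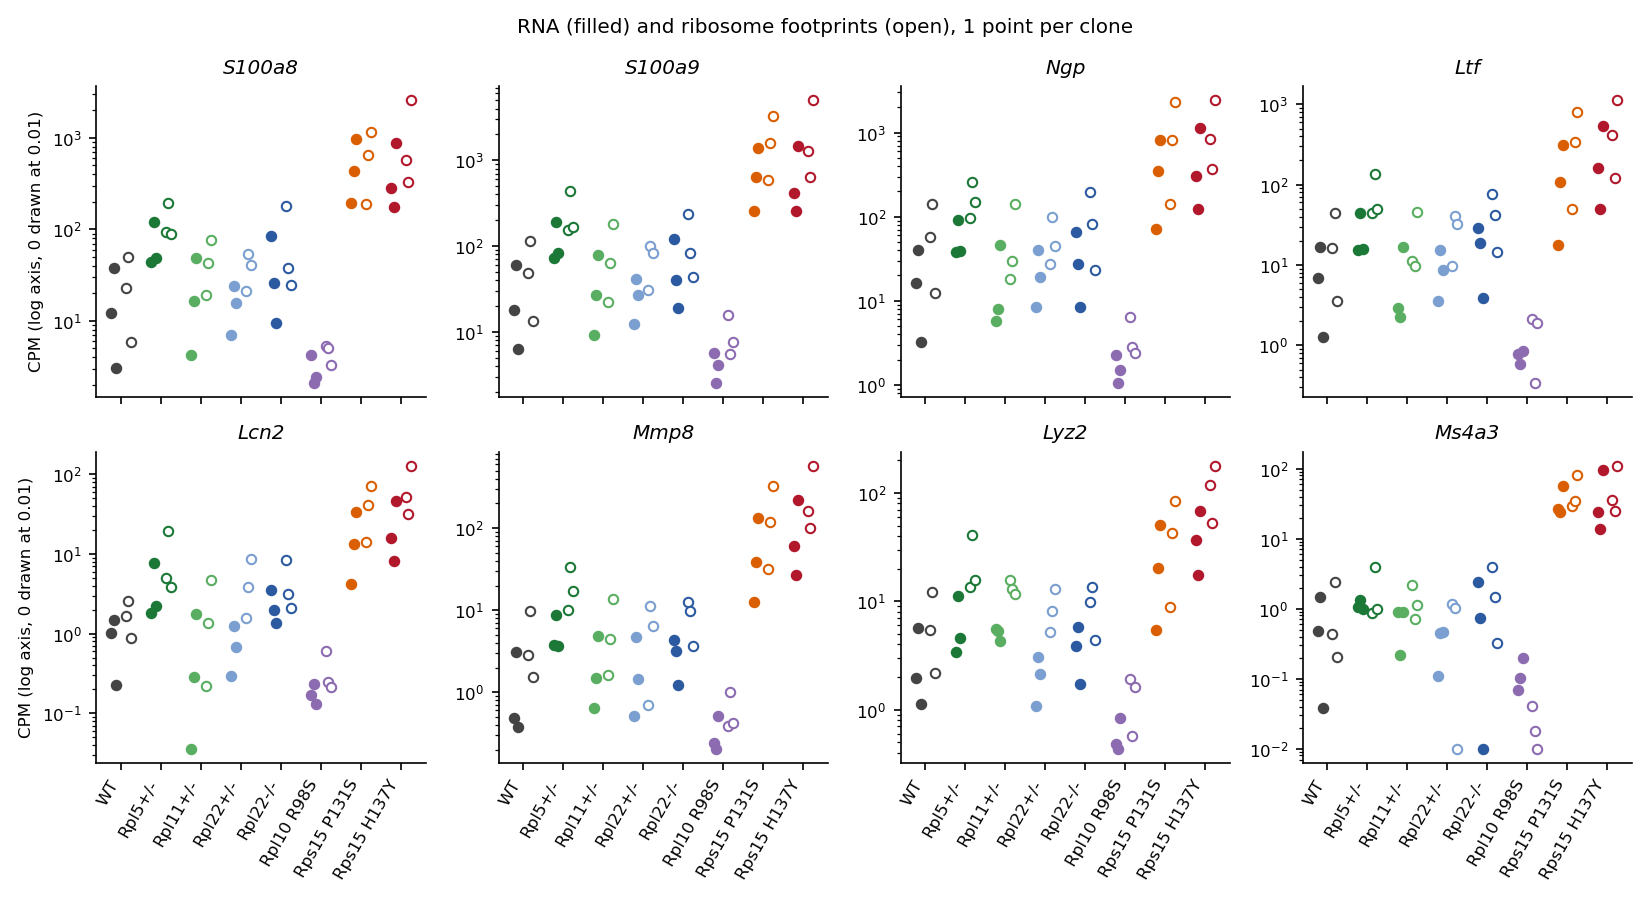
RNA level (filled points) and footprint level (open points) of each of the 8 genes in CPM on a log axis, by genotype, with 1 point per clone and a count of 0 drawn at 0.01. The highest points of every panel are Rps15 clones (S100a8 RNA 174 to 982 CPM), although P131S clone 20 lies among the other genotypes for some genes such as Lyz2, and the 3 Rpl10 R98S clones at or near the bottom (2.08 to 4.19 CPM).

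Ngp and Ltf, whose products are made with the specific granules, were also high in the Rps15 mutants, though not in every clone above all others. Ngp RNA measured 16.1, 40.5 and 3.203 CPM in WT clones 1, 2 and 3, 71.6, 350.5 and 805 CPM in P131S clones 20, 24 and 63, and 123, 1126 and 303 CPM in H137Y clones 2, 6 and 16. Ltf RNA measured 6.83, 16.7 and 1.28 CPM in WT, 17.8, 109 and 308 CPM in P131S, and 50.1, 537 and 159 CPM in H137Y, in the same clone order. P131S clone 20 was the low mutant for both genes: it lay below Rpl5+/- clone 76, which held 92.2 CPM of Ngp and 45.0 CPM of Ltf. The other 5 Rps15 clones lay above all 18 clones with intact Rps15.

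Lcn2 (ENSMUSG00000026822, chr2:32384637-32387739, minus strand) and Mmp8 (ENSMUSG00000005800, chr9:7558429-7568486, plus strand) had the same order of Rps15 clones. Lcn2 measured 1.03, 1.49 and 0.226 CPM in WT clones 1, 2 and 3, 4.25, 13.2 and 33.2 CPM in P131S clones 20, 24 and 63, and 8.10, 45.9 and 16.0 CPM in H137Y clones 2, 6 and 16. Mmp8 measured 0.480, 3.13 and 0.377 CPM in WT, 12.7, 39.0 and 132 CPM in P131S, and 26.9, 218 and 60.4 CPM in H137Y. All 6 Rps15 clones exceeded the 18 others for Mmp8, the lowest with 1.46 times the highest of them, while for Lcn2 P131S clone 20 again fell below Rpl5+/- clone 76 (7.75 CPM). Lcn2 RNA reached 10 counts in 11 of the 18 clones with intact Rps15 and Mmp8 in 15 of them.

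Lyz2 (ENSMUSG00000069516, chr10:117277541-117282272, minus strand) had the smallest difference of the 8 and Ms4a3 (ENSMUSG00000024681, chr19:11629499-11640851, minus strand) the clearest separation. Lyz2 RNA measured 1.96, 5.61 and 1.13 CPM in WT clones 1, 2 and 3, 5.49, 20.4 and 50.4 CPM in P131S clones 20, 24 and 63, and 17.4, 68.0 and 36.9 CPM in H137Y clones 2, 6 and 16. P131S clone 20 thus overlapped the WT range for Lyz2. The near copy Lyz1 had 4 counts over all Rps15 RNA libraries and 1 over the others, although reads shared by the copies may have been divided between them. Ms4a3 RNA measured 0.480, 1.46 and 0.0377 CPM in WT, 26.7, 23.8 and 56.9 CPM in P131S, and 13.9, 97.1 and 24.4 CPM in H137Y. Its highest value with intact Rps15 was 2.38 CPM, in the library labelled Rpl22-/- clone 30, so the lowest Rps15 clone held 5.82 times as much. Ms4a3 had 0 counts in Rpl22-/- clone 776, which allows up to 0.227 CPM at that depth, counting error only.

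Against WT, the fitted RNA changes in Rps15 P131S ran from 3.12 (Lyz2) to 5.74 (Ms4a3) on the log2 scale, with a median of 4.54, and in Rps15 H137Y from 3.81 (Lyz2) to 6.25 (Mmp8), with a median of 4.67. The median over all 12814 genes tested was -0.01 for P131S and 0.01 for H137Y. Mean RNA levels were 539 ± 403 (SD, n = 3) CPM in P131S, 445 ± 380 in H137Y and 17.7 ± 17.99 in WT for S100a8. For Ngp they were 409 ± 370, 518 ± 535 and 19.9 ± 18.9 CPM. All 3 P131S clones exceeded all 3 WT clones for 7 of the 8 genes (all but Lyz2), where 28.3% of all genes tested did, and all 3 H137Y clones did so for 8 of 8, where 25% of genes did. These counts restate the choice of the genes and are read no further. Over the whole panel, all 6 Rps15 clones lay above all 18 others for 4 of 8 genes in RNA (S100a8, S100a9, Mmp8 and Ms4a3; 2.96% of all genes) and for 2 of 8 in footprints (S100a9 and Ms4a3; 0.956%). The panel counts also draw on the Rps15 values that chose the genes and are no support for a difference.

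**Figure D2:**
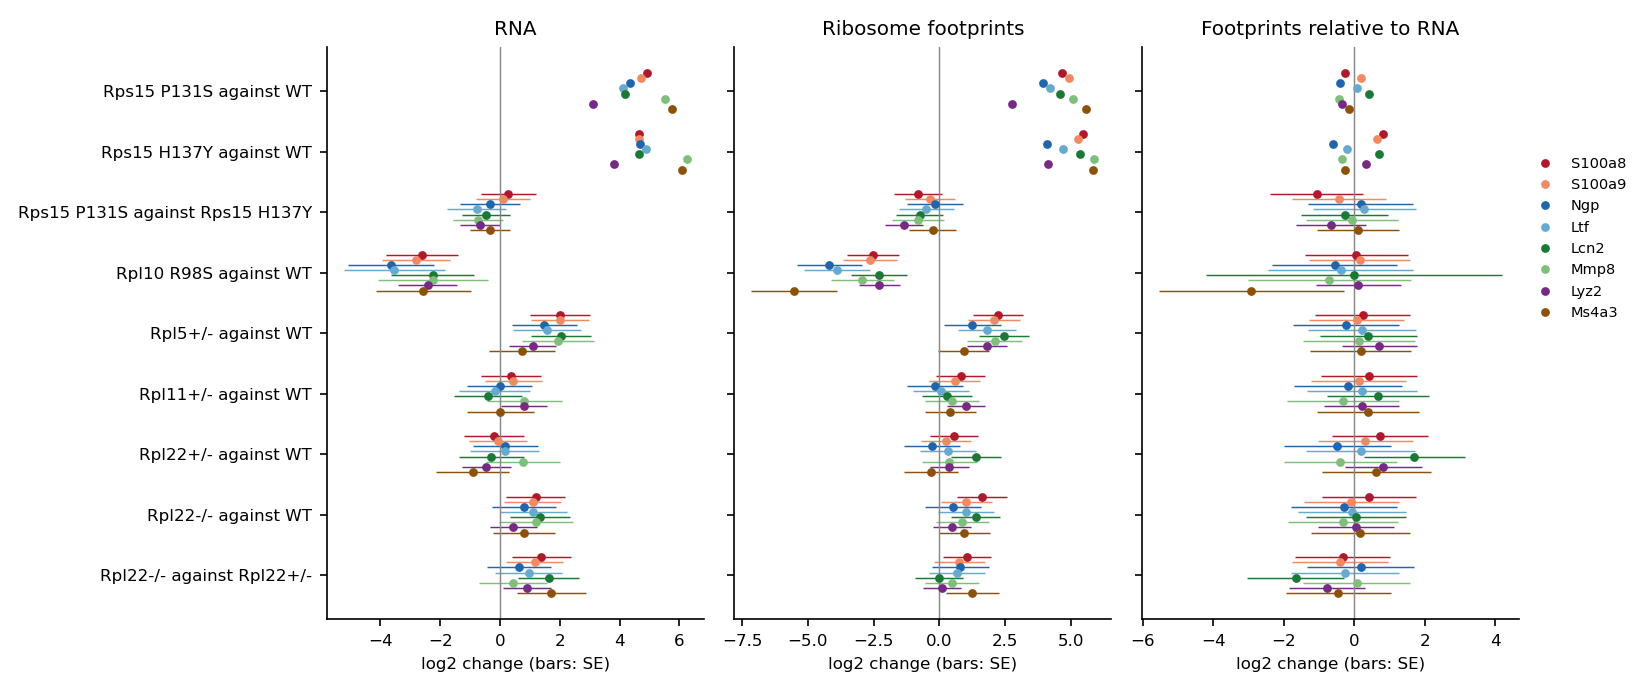
Fitted log2 change of each of the 8 genes (colours) in 9 comparisons, for RNA, footprints and footprints relative to RNA, with bars of 1 standard error except for the Rps15 mutants against WT, which are shown without error because they chose the genes. In RNA and footprints the Rps15 values against WT lie between 2.78 and 6.25 and the Rpl10 R98S values all lie below 0, while relative to RNA the Rps15 values against WT lie between -0.60 and 0.82.

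The 6 Rps15 clones, though all high, varied widely among themselves. RNA ranged 30.1-fold for Ltf, 17.2-fold for Mmp8, 15.7-fold for Ngp, 12.4-fold for Lyz2, 10.8-fold for Lcn2, 6.997-fold for Ms4a3 and 5.65-fold for S100a8. The median SD of log2 RNA level over the 6 clones was 1.24 for the 8 genes and 0.22 for all genes, and all 8 lay above the 95th percentile of 0.65. The spread was as wide in the 18 clones with intact Rps15, with a median SD of 1.43 against 0.17 for all genes. These clones pool more genotypes, so their SD also holds differences between genotypes. Mean S100a9 RNA was 4.15 CPM in Rpl10 R98S and 116 in Rpl5+/-, beside 756 in P131S and 710 in H137Y. In footprints the medians over the 6 Rps15 clones were 1.39 against 0.31, and 7 of the 8 genes lay above the 95th percentile of 0.945.

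This spread was shared by the genes, clone by clone. P131S clone 63 was the highest P131S clone for 8 of 8 genes and clone 20 the lowest for 7 of 8 in RNA (Ms4a3 was the exception, with clone 24 lowest) and 8 of 8 in footprints. H137Y clone 6 was the highest and clone 2 the lowest for 8 of 8 in both assays. Outside Rps15 the clones also kept an order: WT clone 2 was highest and WT clone 3 lowest for 8 of 8 genes in both assays, with a median 10.9-fold gap in RNA, and Rpl5+/- clone 76 was highest of its genotype for 8 of 8. Over the 28 pairs of genes, Pearson's r of log2 RNA levels ran from 0.65 (Lyz2 with Ms4a3) to 1.00 (median 0.93) across the 6 Rps15 clones and from 0.67 to 0.99 (median 0.88) across the 18 others. The points of each pair share their libraries, so these are descriptions of the clones and carry no p-value. The RNA of Rps15 itself gave another order of clones, at 1935, 907 and 1825 CPM in P131S clones 20, 24 and 63 and 875, 817 and 1829 CPM in H137Y clones 2, 6 and 16.

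**Figure D3:**
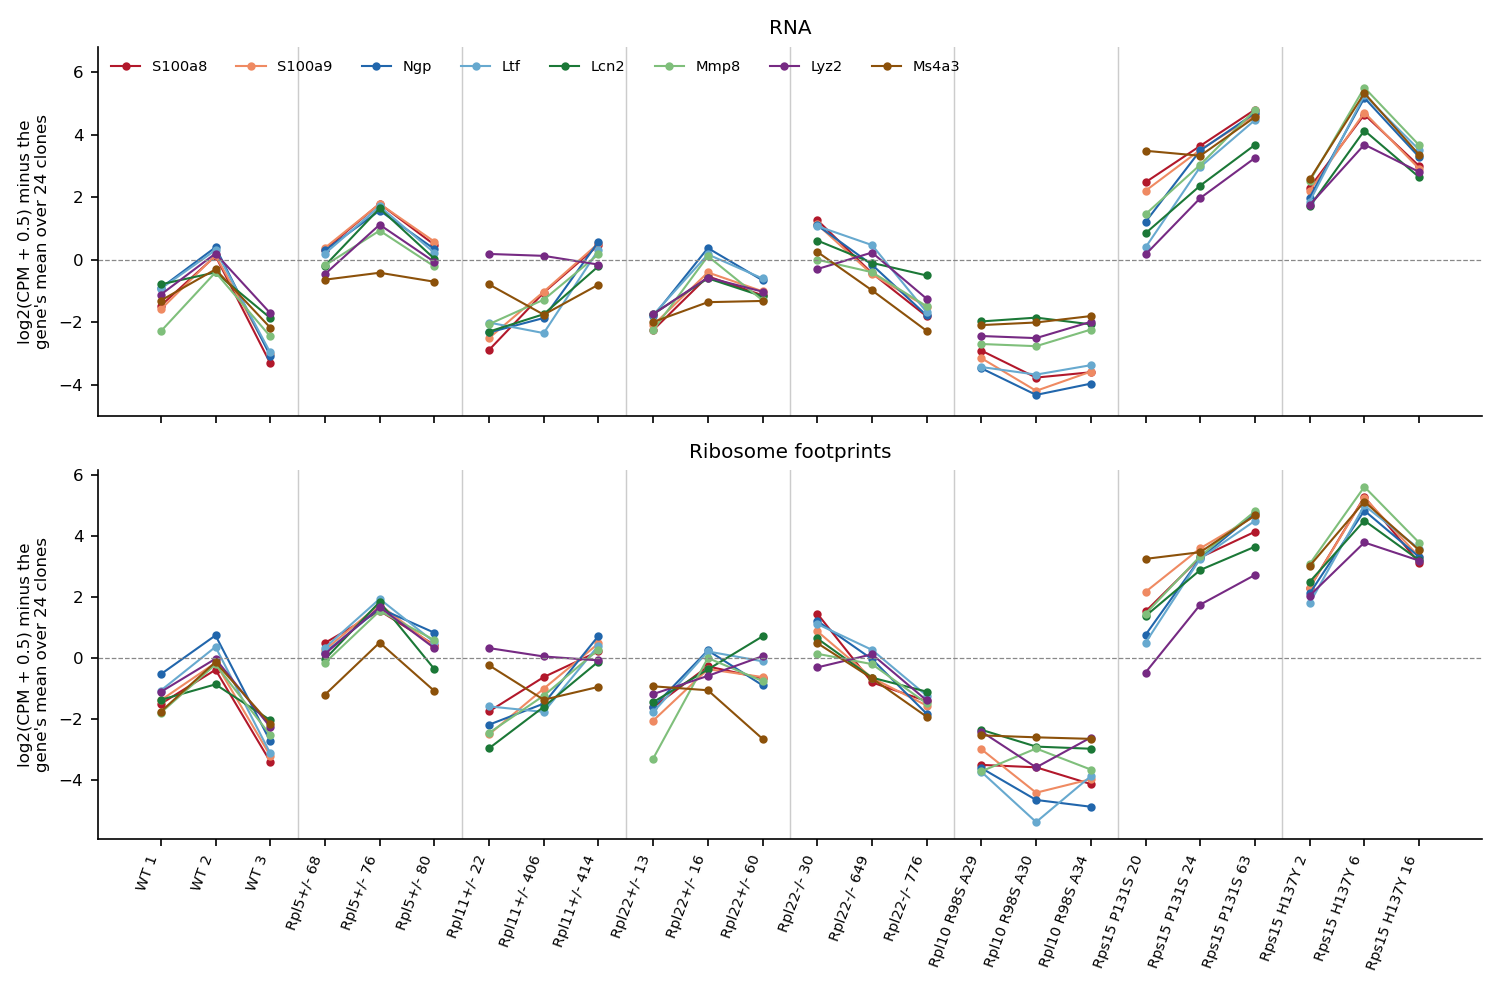
Level of the 8 genes (1 line each) in each of the 24 clones, as log2(CPM + 0.5) minus the gene's mean over all clones, for RNA above and footprints below; lines join clones of a genotype and have no meaning as an order. The lines of the 8 genes run close together, with their peaks at WT clone 2, Rpl5+/- clone 76, P131S clone 63 and H137Y clone 6.

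The 2 Rps15 mutations were compared with each other, a contrast that did not choose the genes. By edgeR's quasi-likelihood test with Benjamini-Hochberg adjustment over all genes, none of the 8 passed for P131S against H137Y in RNA, where 25.2% of all genes passed, or in footprints, where 4.17% did. None had an unadjusted p under 0.05 in either assay, and DESeq2 and limma-voom also called none. The RNA differences, P131S minus H137Y, had a median log2 of -0.40 and ran from -0.78 to 0.28 (adjusted p from 0.508 to 0.961). The footprint differences had a median of -0.62 and ran from -1.35 to -0.16 (adjusted p from 0.33 to 0.972). Differences of this size were within the spread between clones, and without H137Y clone 6 the medians turned to 0.69 in RNA and 0.57 in footprints.

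For 6 of the 8 genes, all but Lcn2 and Ms4a3, the lowest RNA level of the 24 clones was in Rpl10 R98S clone A30. Ngp RNA measured 2.30, 1.05 and 1.49 CPM in Rpl10 R98S clones A29, A30 and A34, a mean of 1.61 ± 0.632 (SD, n = 3) against 19.9 ± 18.9 in WT, from 67, 41 and 23 counts. S100a9 RNA measured 5.77, 2.54 and 4.15 CPM in these clones and S100a8 RNA 4.19, 2.08 and 2.40 CPM. Ltf RNA measured 0.789, 0.590 and 0.844 CPM. For S100a9, S100a8, Ngp and Ltf the ranges were next to those of WT clone 3, the low WT clone: Ngp at 3.203, S100a8 at 3.05, S100a9 at 6.41 and Ltf at 1.28 CPM there. S100a8 overlapped WT through clone A29, while for S100a9, Ngp, Ltf and Lyz2 all 3 Rpl10 clones were below all 3 WT clones (4 of 8 genes, where 22.7% of all genes were lower without overlap). These 4 genes were also lower in the 3 Rpl10 clones than in any of the 15 other clones with intact Rps15, which held for 4.41% of all genes.

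The fitted RNA changes in Rpl10 R98S against WT were negative for 8 of 8 genes, with a median log2 of -2.59 where the median of all genes was 0.00. The change was -3.65 for Ngp (SE 1.45, adjusted p = 0.108) and -3.54 for Ltf (SE 1.68, adjusted p = 0.179). For the alarmins it was -2.80 in S100a9 (SE 1.14, adjusted p = 0.115) and -2.61 in S100a8 (SE 1.21, adjusted p = 0.168), and for Lyz2 -2.42 (SE 0.99, adjusted p = 0.119). No gene of the 8 passed the edgeR quasi-likelihood test at 0.05, where 12.9% of all genes did, while 4 had an unadjusted p under 0.05. Limma-voom called none, and DESeq2 called 5: Ngp (adjusted p = 0.00475), Ltf, Lyz2, S100a9 and S100a8. Of all 12814 genes, DESeq2 called 1972 in this comparison. Footprints gave the same picture: all 3 Rpl10 clones were below all 3 WT clones for 7 of 8 genes, where 12.9% of all genes were, and the median log2 change was -2.78. In footprints S100a8, Ngp, Ltf and Lyz2 were lower in the 3 Rpl10 clones than in the 15 other clones with intact Rps15 (4 of 8 genes, 1.66% of all genes). Ngp footprints measured 6.42, 2.85 and 2.37 CPM in clones A29, A30 and A34 against 58.1, 141 and 12.3 in WT clones 1, 2 and 3, a log2 change of -4.19 (SE 1.23, adjusted p = 0.101). All 8 had an unadjusted p under 0.05 in footprints, and none passed after adjustment with edgeR (1.62% of all genes did) or limma-voom. DESeq2 called 5 (Ngp, Ms4a3, Ltf, Mmp8 and Lyz2) and, of all 16217 genes, 698. The counts by unadjusted p, in RNA and in footprints, stand without the share of all genes. As the 8 genes also move together, these counts are read no further. The size of the drop rested on WT clone 2: without it the median log2 change was -1.55 in RNA and -1.86 in footprints.

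Rpl5+/- clones lay above WT in value. S100a8 RNA measured 43.5, 121 and 48.6 CPM in Rpl5+/- clones 68, 76 and 80, all above the 3 WT clones, and S100a9 measured 71.9, 192 and 82.8 CPM, also all above. For Ngp, clones 68 and 80 (37.7 and 39.0 CPM) lay just below WT clone 2 (40.5 CPM), and clone 76 at 92.2 CPM above it. All 3 Rpl5+/- clones exceeded WT for 4 of 8 genes in RNA, where 16.6% of all genes did, and for 5 of 8 in footprints, where 5.65% did. The median log2 change was 1.77 in RNA (adjusted p from 0.352 to 0.808) and 1.96 in footprints (adjusted p of 1 for each), and edgeR called no gene of the 8 in either (1.04% and 0.0123% of all genes called). In RNA none had an unadjusted p under 0.05, and in footprints 3 did. The share of all genes with such a p is not given, so this count is read no further. Without clone 76 the medians were 1.03 in RNA and 1.25 in footprints. DESeq2 and limma-voom called none.

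In Rpl11+/- the clones went apart: S100a9 RNA was 9.31 CPM in clone 22, 26.9 in clone 406 and 79.6 in clone 414, reaching above the WT range. Rpl22+/- clones 13, 16 and 60 held 12.5, 41.5 and 27.1 CPM of S100a9, inside the WT range. Of the clones labelled Rpl22-/-, 30, 649 and 776 held 121, 39.9 and 19.05 CPM. Median log2 changes against WT over the 8 genes were 0.19 in RNA and 0.46 in footprints for Rpl11+/-, -0.13 and 0.36 for Rpl22+/-, and 1.10 and 0.99 for Rpl22-/-. By edgeR none of the 8 was called in these comparisons, where 11.8%, 3.9% and 5.27% of all genes were called in RNA and 0.074%, 0.253% and 0.105% in footprints, and none had an unadjusted p under 0.05. The same held for Rpl22-/- against Rpl22+/-, with medians of 1.06 and 0.72 (0.0078% and 0.00617% of all genes called). DESeq2 and limma-voom called none in any of the 4 comparisons. Without the library labelled Rpl22-/- clone 30, the highest of its group for 7 of 8 genes, the medians against WT were 0.28 in RNA and 0.31 in footprints, and against Rpl22+/- 0.33 and -0.04.

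Ribosome footprints on these mRNAs followed the RNA from clone to clone. S100a9 footprints measured 49.3, 116 and 13.6 CPM in WT clones 1, 2 and 3, 585, 1578 and 3294 CPM in P131S clones 20, 24 and 63, and 641, 5014 and 1298 CPM in H137Y clones 2, 6 and 16. Ltf footprints measured 16.2, 44.7 and 3.52 CPM in WT, 49.2, 336 and 797 CPM in P131S, and 122, 1128 and 421 CPM in H137Y. Ms4a3 footprints measured 0.429, 2.37 and 0.202 CPM in WT, 29.5, 34.5 and 80.3 CPM in P131S, and 25.1, 110 and 36.2 CPM in H137Y. The highest and lowest clones of these genotypes were those of the RNA data for S100a9 and Ltf, and no Rps15 clone overlapped WT for any of these 3 genes. Median log2 footprint changes against WT were 4.64 in P131S and 5.32 in H137Y. Pearson's r between log2 RNA and log2 footprint levels was 0.91 (S100a8) to 1.00 (Ltf) over the 6 Rps15 clones and 0.80 (Ms4a3) to 0.99 (S100a9) over the 18 others, both assays being made from the same lysates. In footprints all 3 P131S clones exceeded WT for 7 of 8 genes (16.6% of all genes) and all 3 H137Y clones for 8 of 8 (14.1%). As in RNA, these counts restate the choice of the genes and are read no further.

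**Figure D4:**
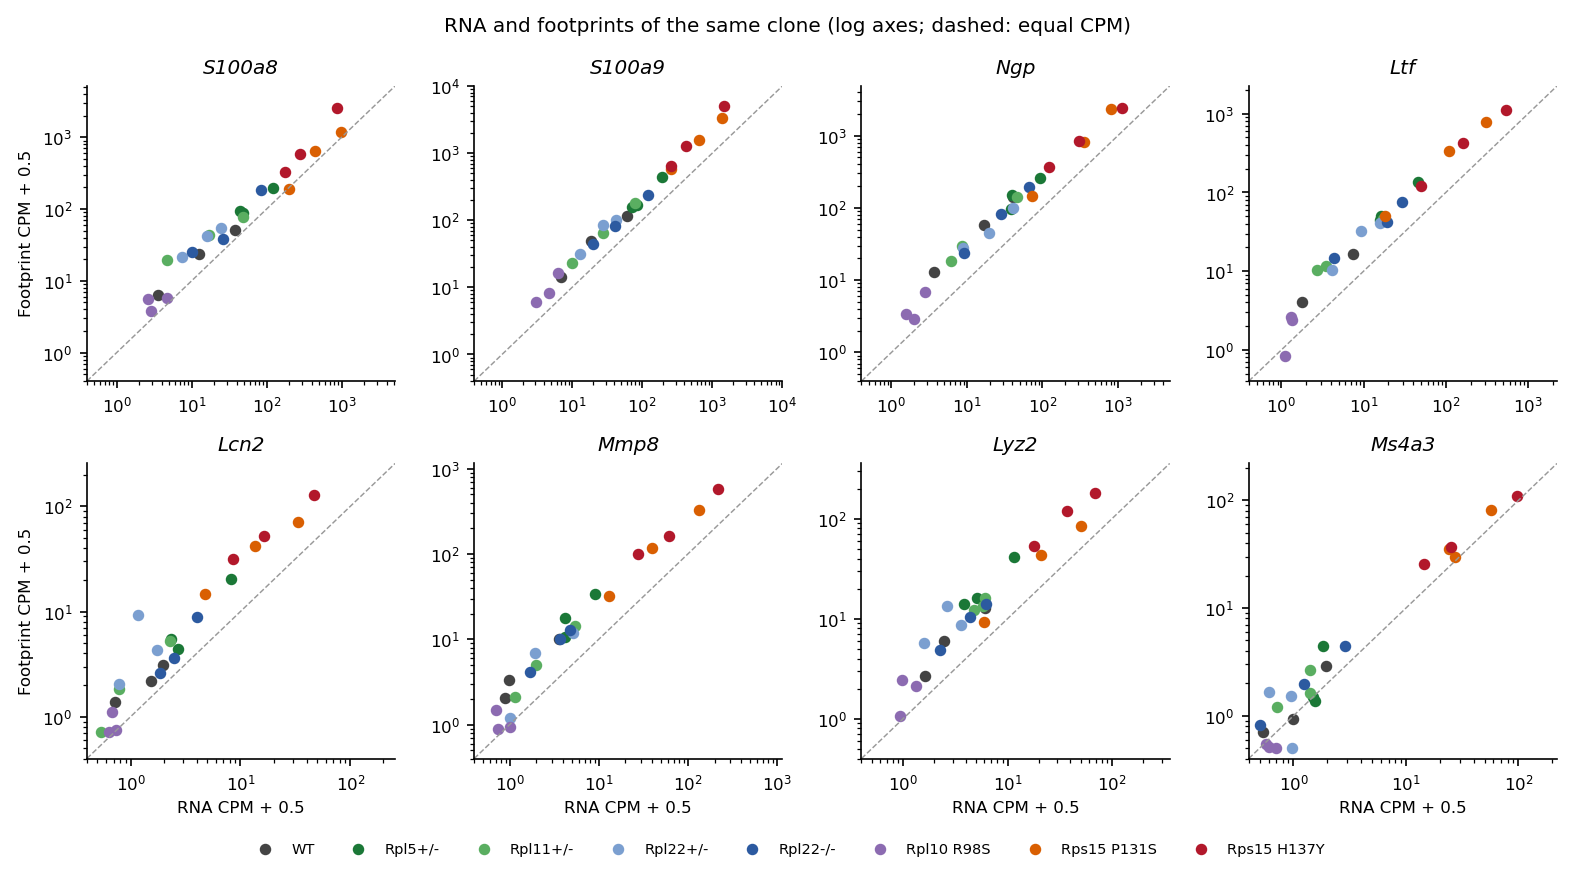
Footprint level against RNA level (CPM + 0.5, log axes) for each of the 8 genes, with 1 point per clone, a colour per genotype and a dashed line at equal CPM. Points run roughly along the dashed line and mostly above it, with Rps15 clones at its upper end in each panel, P131S clone 20 lying lower among other genotypes for some genes, and Rpl10 R98S clones toward its lower end.

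The ratio of footprint CPM to RNA CPM, a measure of ribosome load per message, varied less than either level. It is given where both libraries had at least 10 counts. For S100a9 it was 2.26 ± 0.431 (SD, n = 3) in WT, 2.39 ± 0.0988 in P131S and 3.02 ± 0.469 in H137Y. For Ngp it was 3.64 ± 0.181 in WT, 2.40 ± 0.433 in P131S and 2.64 ± 0.433 in H137Y. In median over the 6 Rps15 clones and the other clones, it was 2.61 and 2.72 for Ltf, 2.66 and 3.04 for Mmp8, and 2.36 and 2.68 for Lyz2. It was likewise lower in the Rps15 clones for Ngp (2.56 and 2.98), S100a8 (1.69 and 2.01) and Ms4a3 (1.43 and 1.635). The ratio was higher in them for Lcn2 (3.18 and 2.34) and S100a9 (2.50 and 2.28). For S100a8 the P131S clones 20, 24 and 63 had ratios of 0.974, 1.49 and 1.19 and the H137Y clones 2, 6 and 16 had 1.89, 2.95 and 2.05, without overlap, beside a WT mean of 1.70 ± 0.319. In the fit of both assays, that S100a8 difference was -1.06 on the log2 scale (SE 1.319) and did not pass edgeR's test (adjusted p = 0.969). This fit does not pair the 2 assays of a clone, so its SE also holds the spread in level between clones. The alternative fits, including the fit with the clone as a block, also called none of the 8 in this comparison. No gene of the 8 had a called change in the ratio in any of the 7 tested comparisons, and none had an unadjusted p under 0.05. Of all genes, 0.69% were called in P131S against H137Y, 0.212% in Rpl10 R98S, 0.0118% in Rpl22-/-, 0.0059% in Rpl22+/- and 0% in the other 3. DESeq2 and limma-voom called none. Median log2 changes of the ratio against WT were -0.20 in P131S, 0.06 in H137Y, -0.20 in Rpl10 R98S and 0.20 in Rpl5+/-.

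**Figure D5:**
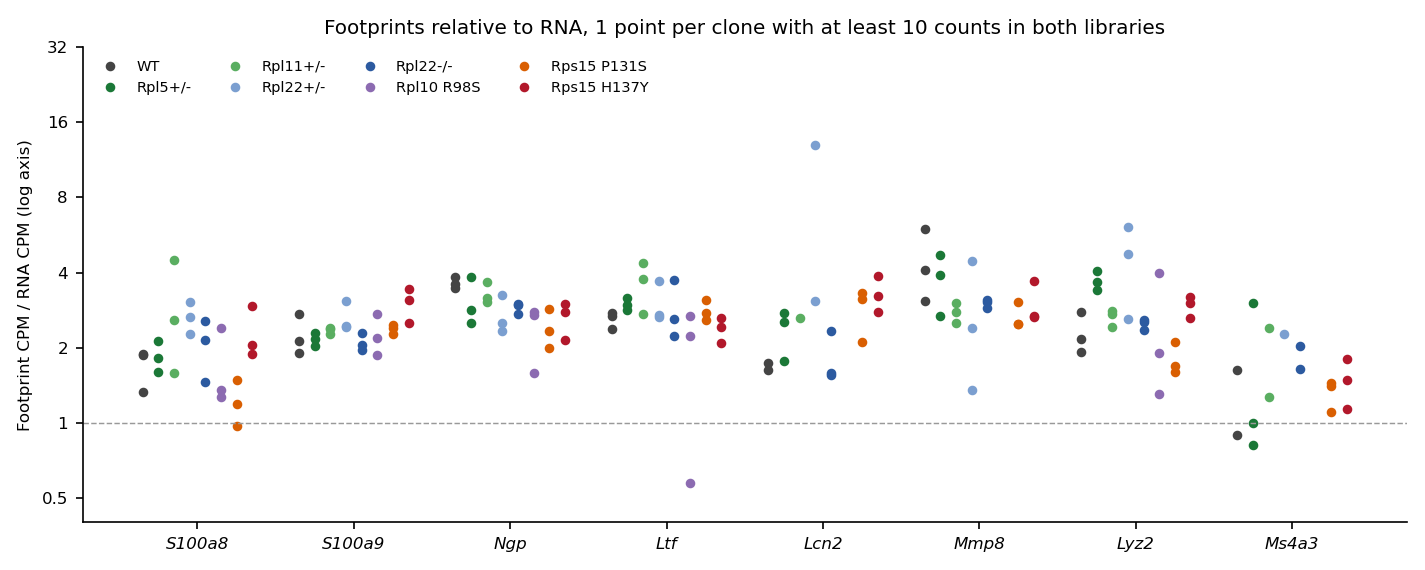
Footprint-to-RNA ratio of each of the 8 genes by genotype, with 1 point per clone that had at least 10 counts in both libraries. Most ratios lie between 1 and 4 in every genotype. The P131S clones lie below the H137Y clones for S100a8 (0.974 to 1.49 against 1.89 to 2.95), and also for Lyz2 and S100a9.

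The rest of the granule programme was read from lists of other genes, in the Rps15 contrasts that also chose the 8 genes. The lists were drawn up with earlier results known, and genes were named for their large called changes. Counts and adjusted p-values here and for the S100, regulator and receptor lists therefore describe the clones and are no independent support. Counts cover genes that pass the filter on low counts in the 18 clones with intact Rps15 alone, as all 8 genes do, since a gene that passes only through the Rps15 clones had to be high in them. By edgeR's test 23.5% of such genes were called higher and 23.8% lower in RNA in P131S, and 20.4% higher and 20.4% lower in H137Y. Of 4 other specific granule genes, Olfm4 and Cybb rose in each mutant, and Cyba and Pglyrp1 did not pass (medians of the 4 were 2.16 in P131S and 3.00 in H137Y). Olfm4, encoding olfactomedin-4, rose to 6.36 to 245 CPM in H137Y from 0.377 to 3.305 in WT (adjusted p = 0.00923). Cybb, encoding the catalytic subunit of the phagocyte oxidase, rose to 3.43 to 25.0 CPM in H137Y from 0.0377 to 0.640 (adjusted p = 0.00129). Chil3, which entered the test only through the Rps15 clones, measured 2.71 to 15.2 CPM in them and at most 0.217 CPM in the 18 others. Of 8 azurophil granule genes, which belong to an earlier stage, 4 rose and 1 fell in P131S and 6 rose and none fell in H137Y (medians 0.97 and 0.83). Ctsg, encoding cathepsin G, rose to between 3.2 and 22.8 CPM in H137Y from 0 to 0.498 in WT (adjusted p = 0.00188), and Srgn, the proteoglycan core of the granule, to 466 to 770 CPM in P131S from 253 to 271 (adjusted p = 2.16e-06). Of 7 gelatinase granule and surface genes, 2 rose and 3 fell in P131S and 4 rose and none fell in H137Y (medians -0.24 and 0.46).

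The other S100 genes moved in both directions or did not pass the test. Of 7 tested, 3 rose and 3 fell in P131S and 2 rose and none fell in H137Y, with medians of 0.29 and 0.10. S100a4 fell to 7.96 to 37.0 CPM in P131S from 65.7 to 134 in WT (adjusted p = 0.000835), and S100a6 to 33.3 to 40.5 CPM from 54.5 to 93.5 (adjusted p = 0.00514). Among 10 C/EBP and other granulocyte regulators, 3 rose and 2 fell in P131S and 4 rose and 2 fell in H137Y, with medians of 0.00 in each. Cebpe, which encodes C/EBP epsilon, rose in H137Y to 35.7 to 147 CPM from 28.6 to 31.9 (adjusted p = 0.013). Clones with intact Rps15 reached 49.0 CPM. The other C/EBP genes did not share a direction. Cebpg ran from 43.6 to 52.6 CPM in the Rps15 clones and from 53.2 to 100 CPM in the others. Medians were 76.9 and 83.5 CPM for Cebpb, 11.4 and 11.9 for Cebpd and 106 and 85.3 for Cebpz. Cebpa RNA was at 0 in all 24. Gfi1, a repressor required for neutrophil development, was tested only through the Rps15 clones, at 0.100 to 1.39 CPM in them and at most 0.253 CPM in the others. Of 6 alarmin receptor and adaptor genes, 2 rose and 1 fell in P131S and 3 rose and 1 fell in H137Y (medians -0.02 and 0.10): Tlr4, the receptor for the alarmin pair, fell in H137Y to 8.87 to 14.2 CPM from 26.5 to 31.3 (adjusted p = 0.00101), and Cd33, a sialic acid-binding receptor of myeloid cells, rose to 21.6 to 151 CPM from 1.28 to 7.78 (adjusted p = 0.00181).

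Other markers of neutrophils were low in all clones. The summed RNA of 6 of them (Camp, Ly6g, Cxcr2, Mmp9, Retnlg and Csf3r) was 2.78 to 7.75 CPM in the Rps15 clones and 5.44 to 9.60 CPM in the others. Most of it was Cxcr2, with a median of 1.55 CPM in the Rps15 clones and 3.58 in the others, and Mmp9, with medians of 2.15 and 3.602. Ly6g, a surface protein of neutrophils that passed the filter only through the Rps15 clones, had medians of 0.459 and 0 CPM. Csf3r, encoding the receptor for granulocyte colony-stimulating factor, had 0 counts in the Rps15 clones and 1 in the 18 others. Sums of 11 monocyte and macrophage markers were 108 to 188 CPM in the Rps15 clones and 151 to 233 in the others, with Ly6c2 and Ly86 at 0 in all 24. Sums of 14 mast cell, basophil and eosinophil markers were 383 to 704 against 369 to 631 CPM in RNA and 243 to 1086 against 123 to 420 CPM in footprints, with Kit RNA at 0 in all 24. Within this list Gata2, the most abundant, had medians of 316 CPM in the Rps15 clones and 426 in the others. Prg2, Epx, Cpa3 and Mcpt8, granule genes of these cells, had higher medians in the Rps15 clones: 30.1 against 2.74 CPM for Prg2, 10.9 against 5.095 for Epx, 88.85 against 50.7 for Cpa3 and 7.49 against 0.0368 for Mcpt8. For Epx and Cpa3 the clones overlapped widely. Epx ran from 0.803 to 104 CPM in the Rps15 clones and from 0.137 to 22.2 CPM in the others, and Cpa3 from 17.4 to 239 and from 7.77 to 103 CPM. Sums of 15 B-lineage markers were 186 to 292 against 173 to 308 CPM, nearly all of it Ptprc. Cd79b was at 3.345 to 8.31 CPM in the Rps15 clones and 5.05 to 9.91 in the others, and Il7r, Dntt and Ms4a1 were at 0 in all 24. Sums of 10 erythroid and megakaryocyte markers were 168 to 733 against 257 to 431 CPM. Sums of 9 T and NK cell markers were 165 to 2106 against 23.8 to 936 CPM, in the Rps15 clones almost wholly Gzmb (165 to 2106 CPM). The part of these shifts in the result was not tested.

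The RNAs most like the 8 across all 24 clones, by Pearson's r of each of 11490 other genes with the mean log2 profile of the 8, were Cd33 (r = 0.99), Stfa2l1 (0.98), Cstdc4 (0.98), Cstdc5 (0.98) and Stfa3 (0.97), the last 4 of the stefin family of cysteine protease inhibitors. This r includes the gap between Rps15 clones and the others that chose the genes; over the 18 others alone it was 0.97, 0.96, 0.95, 0.96 and 0.94, and over the 6 Rps15 clones 0.98, 0.93, 0.87, 0.92 and 0.88. Cd33 ran from 20.5 to 151 CPM in the Rps15 clones and from 0.334 to 18.7 CPM in the others. Cstdc5 ran from 152 to 1221 CPM and from 1.10 to 31.2 CPM. Taken gene by gene, Cd33 was the nearest to S100a9, Ngp, Ltf and Lyz2, Stfa2l1 to S100a8, Stfa3 to Lcn2, Cstdc5 to Mmp8 and Stfa1 to Ms4a3, the last with r of 0.98 over 24 clones and 0.83 over the 18 others. The stefin genes are near copies of each other, so their counts may have been divided among them. The points share libraries and genotypes, and these likenesses are given without a test.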

How the data were processed

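RNA and ribosome footprints were sequenced from 24 Ba/F3 clones, 3 of each of 8 genotypes. The values used are the estimated counts per gene deposited by the authors; 88.54% were whole numbers. Per the submitters' processing notes, STAR 2.6.1d, Salmon 1.4.0, DESeq2 1.30 and build GRCm38 were used; their roles, the annotation and the strand setting are not given in the sources used here. All 48 columns were matched to clones by name.

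Counts were rounded and fitted with edgeR 4.0.16 (R 4.3.3): quasi-likelihood, robust, TMM, the default filter on low counts (minimum count 10), all 24 libraries of an assay together. The RNA fit held 12814 genes and the footprint fit 16217. The ratio was tested as the interaction of assay and genotype over 48 libraries (16957 genes). P-values are two-sided, adjusted by Benjamini-Hochberg within a comparison, with a threshold of 0.05. The code was tested on simulated data. All 8 genes passed the filter; with the genotype as group, Lcn2 and Ms4a3 reached 10 counts in 17 of 24 RNA libraries, Mmp8 in 21 and the others in 24. RNA and footprint libraries of a clone deviated together from their group means (r from 0.15 to 0.54 for all 24 clones, over 12066 genes; between different clones of a genotype from -0.443 to -0.0255), so clones pair the assays.

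The 8 genes, the gene lists and the markers were chosen with earlier results of these data known. All 8 are named; of each list, at most the 4 genes highest in mean RNA and the 4 with the largest called change without overlap; and the genes with the highest r to the 8. Marker genes singled out (Csf3r, Cxcr2, Mmp9, Ly6g, Gata2, Prg2, Epx, Cpa3, Mcpt8, Ptprc, Cd79b, Gzmb and those at 0) were chosen after their values were seen. So were the C/EBP genes set beside Cebpe and the limit of list counts to genes that pass the filter without the Rps15 clones. Alternatives were DESeq2 1.42.0, limma-voom (limma 3.58.1), no filter, only the 2 genotypes compared, other pseudocounts, each clone left out and the clone as a block. Promoters came from RefSeq, and all 8 genes matched. An interval or floor covers counting error only.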

Additional observations from a re-analysis of the deposited data

How the results depend on the processing

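The Rps15 changes against WT chose the genes, so refits of the same counts say nothing of their stability; over 10 other fits they ranged from 2.15 to 7.13 for P131S and 3.22 to 7.87 for H137Y in RNA, and from 1.99 to 7.24 and 3.11 to 7.46 in footprints. For Rpl10 R98S against WT the number of the 8 genes called, 0 by edgeR, was 5 in RNA and 5 in footprints with DESeq2. It was 1 (Lyz2) in RNA and 1 (Ms4a3) in footprints when only the 2 genotypes were fitted. Of all genes, DESeq2 called 1972 of 12814 in RNA and 698 of 16217 in footprints. The fit of the 2 genotypes called 4216 of 11917 in RNA, where not all 8 genes passed its filter, and 689 of 14124 in footprints. The cause of these differences between fits was not tested. The RNA median log2 change for Rpl10 R98S against WT was -2.10 with limma-voom. In the other 6 tested comparisons, 10 alternative fits per assay and for the ratio called none of the 8.

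Leaving out each clone in turn, the medians ran from -0.71 to 1.44 for Rpl11+/- and from -0.61 to 1.08 for Rpl22+/- in RNA, and the sign turned without Rpl11+/- clone 414 or WT clone 3 (-0.32) for Rpl11+/- and without WT clone 2 or Rpl22+/- clone 13 (0.21) for Rpl22+/-. In footprints they ran from -0.55 to 1.53 for Rpl11+/-, from -0.10 to 1.37 for Rpl22+/- and from 1.25 to 2.91 for Rpl5+/-. For Rpl10 R98S they ran from -3.10 to -1.55 in RNA and from -3.22 to -1.86 in footprints. The smallest Rpl10 R98S drop and the highest Rpl5+/-, Rpl11+/- and Rpl22+/- values came without WT clone 2, and without it the Rpl22-/- medians were 2.11 in RNA and 1.95 in footprints.

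Medians of the ratio were small and moved with the fit: from 0.11 to 0.25 for Rpl5+/-, 0.10 to 0.41 for Rpl11+/-, -0.63 to -0.0138 for Rpl10 R98S and -0.0222 to 0.26 for H137Y against WT with clones left out, and -0.0477 for Rpl5+/- and -0.24 for Rpl22-/- with limma-voom. With the clone as a replicate block, the Rpl5+/- ratio median was 0.0545 and none of the 8 genes was called in any tested comparison; over all genes the block called 70 against 36 in Rpl10 R98S, 9 against 1 in Rpl22+/- and 4 against 2 in Rpl22-/-. RNA levels of Lcn2 and Ms4a3 outside Rps15 rest on few counts (in Rpl10 R98S 2 to 9 and 2 to 4), so their folds there are uncertain. They did not have the largest errors of the fit: for Rpl10 R98S against WT in RNA, the SE was larger for Mmp8 and Ltf than for either.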
